A study of Mus musculus with 7 samples.

Results

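The RNA levels of 34 genes of purine and pyrimidine synthesis were examined in mouse CD8+ T cells exposed to small extracellular vesicles (sEVs) from leukemic or healthy spleens. Members were taken by gene symbol, 34 of the 55367 genes in the count table, and the rule uses no measured value, although results of these data were known when it was set. They comprise 19 genes of purine steps, 7 of pyrimidine steps, and 8 of deoxynucleotide steps. Of these, 33 had enough counts to be tested, and *Nme2* did not.

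The cells came from spleens of Foxp3 YFP/cre mice, a strain with a YFP-Cre fusion at the *Foxp3* locus that both groups share and that marks regulatory T cells. They were sorted as CD8+ T cells and treated for 48 hours. Per the methods of the study, the mice were young adults and CD8+ T cells were cultured in wells coated with anti-CD3, so both groups were stimulated. The cells of 4 libraries received HCME-sEVs, the sEVs of the microenvironment of healthy spleens. Those of 3 libraries received LME-sEVs, from spleens of leukemic Eμ-TCL1 mice, whose *TCL1* transgene is driven in B cells and which model chronic lymphocytic leukemia. By the labels all cultures had sEVs at 100 μg/ml, while the methods speak of the amount present in a spleen of each kind. Neither says whether the libraries of a group came from separate mice or cultures, so p-values measure the spread between these libraries, which may be technical.

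Purine rings are built step by step on activated ribose up to IMP, from which AMP and GMP branch, whereas the pyrimidine ring is completed as orotate before it is joined to ribose to give UMP. Ribonucleotide reductase turns ribonucleotides into deoxynucleotides, and thymidylate synthase supplies the base found in DNA alone. T cells switch these pathways on when they are activated, since dividing cells need nucleotides for both RNA and DNA, and salvage enzymes recover bases and nucleosides instead of making them anew.

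Each library held between 3689831 and 5030522 counts, 1 per molecule captured at the 3′ end of a transcript, so the length of a gene does not enter a level. Levels are given as CPM, counts scaled by TMM to a common library size, and 3 counts, the smallest level taken as measurable, corresponded to between 0.582 and 0.807 CPM. These floors cover counting error only. The CD8 T-cell markers summed to between 2917 and 2998 CPM with HCME-sEVs and between 3051 and 3378 CPM with LME-sEVs, and *Cd4* had at most 3 counts in any library. The 4 CD4 T-cell markers, nearly all of it *Zbtb7b*, summed to between 6.26 and 14.4 CPM with HCME-sEVs and between 15.3 and 17.3 CPM with LME-sEVs, and *Zbtb7b*, the only one tested, was called higher without overlap of the groups (log2 fold change 0.87), a call lost without HCME-sEV library 1 or 4 and without any single LME-sEV library. RNA of markers of other cell types was also detected, with sums that reached higher values with LME-sEVs, except for NK-cell markers. Whether it came from cells of these types was not tested. The 10 B-cell markers summed to between 229 and 273 CPM with HCME-sEVs and between 312 and 337 CPM with LME-sEVs, nearly all of it *Ighm*, while *Cd79a* had 2 counts in HCME-sEV library 1 and 0 in the others. The 10 erythroid and platelet markers summed to between 74.9 and 183 CPM and between 160 and 207 CPM, respectively. Of the 8 tested, edgeR called 3 higher (37.5%, beside 3.75% of all tested genes) and DESeq2 0, and leaving out 1 library gave 0 to 4 edgeR calls. The 9 markers of basophils, mast cells, and eosinophils summed to between 8.67 and 36.2 CPM and between 31.2 and 50.1 CPM. Among the 6 tested, edgeR called 3 higher and DESeq2 0, where edgeR called 3.75% of all tested genes higher. All 3 had a log2 fold change beyond 1, and the highest of the list was 3.92. Leaving out 1 library gave 1 to 3 edgeR calls. With a filter of at least 5 counts in every library, 2 of these markers were tested and 0 called. The 10 myeloid markers, with *Csf3r* at 0 in 6 libraries, summed to between 2.79 and 5.78 CPM and between 8.76 and 9.42 CPM, and the 4 NK-cell markers stayed under 2.17 CPM. The share of counts on mitochondrial genes was between 6.48% and 7.67% with HCME-sEVs and between 6.44% and 6.54% with LME-sEVs. The part of these differences in the results below was not tested.

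The comparison of LME-sEVs with HCME-sEVs asks how leukemic vesicles change the gene expression of CD8+ T cells. Within nucleotide synthesis, RNA of 5 genes fell and RNA of 2 genes rose, each by less than a factor of 2. The 5 that fell were *Atic* and *Nme1* among purine steps and *Dhodh*, *Umps*, and *Uck2* among pyrimidine steps. *Ctps2* of the pyrimidine steps and *Dck* of the deoxynucleotide steps rose. The changes lay between 28.2% below and 42.4% above the level with HCME-sEVs. In bulk RNA, fewer cells of a type and less RNA per cell cannot be told apart.

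A gene was called when its FDR, the Benjamini-Hochberg adjusted p of the quasi-likelihood test in edgeR over 12623 genes, was under 0.05. The 5 members called lower are 15.2% of the 33 tested, where 5.21% of all tested genes were called lower. The 2 called higher are 6.06%, beside 3.75% of all tested genes, and in either direction 8.96% of all tested genes were called. The DEG criterion of the study, which adds a log2 fold change beyond 1, was met by 1.28% of all tested genes and by 0 members. At an unadjusted p under 0.05, edgeR also placed 0 members beyond that cutoff, as did DESeq2 and limma-voom with or without adjustment. For the 26 members that were not called, FDR lay between 0.0684 and 0.911, and 10 of them, all with lower means under LME-sEVs, had an unadjusted p under 0.05. With the 5 called, 15 of 33 members (45.5%) were lower at that unadjusted p, beside 12.3% of all tested genes.

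Many small differences in 1 direction accompanied the few calls. The log2 fold change was negative for 27 of 33 members (81.8%), compared with 48.5% of all tested genes. Its median was -0.18 for the members and 0.01 for all tested genes, and by step it was -0.15 for purine, -0.24 for pyrimidine, and -0.19 for deoxynucleotide genes. In 13 members (39.4%) every LME-sEV library lay below every HCME-sEV library, an arrangement found in 10.8% of all tested genes. The opposite arrangement held for 2 members and for 9.49% of all tested genes, and either held for 20.3% of all tested genes. Member genes are not independent replicates, and these counts carry no test. Members were also more abundant than most genes, with a median of 104 CPM against 22.02 CPM for all tested genes, and differences of a given size are more readily called at higher counts.

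**Figure D1:**
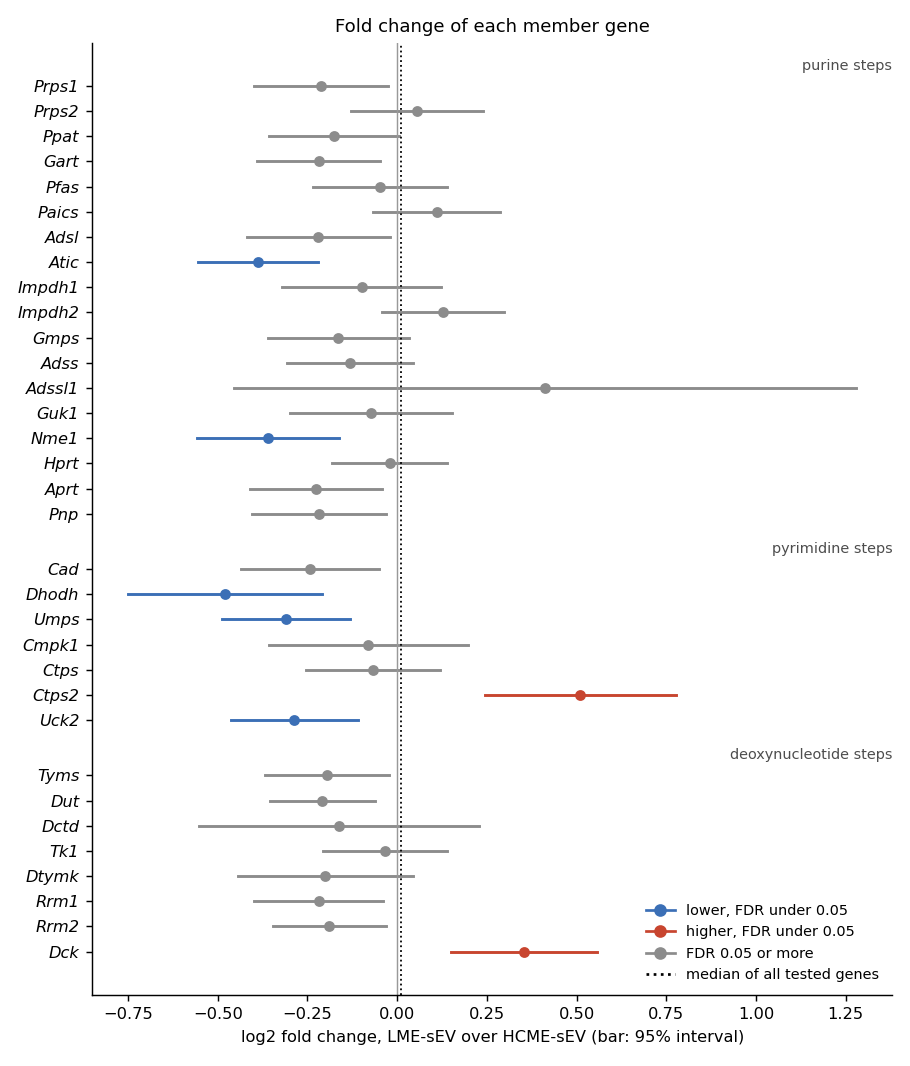
Log2 fold change of the 33 tested members, LME-sEVs against HCME-sEVs, grouped by purine, pyrimidine, and deoxynucleotide steps. Points are edgeR estimates, bars are unadjusted 95% intervals, blue and red mark an FDR under 0.05 (lower and higher), gray the rest, and the dotted line is the median of all tested genes. The called *Atic*, *Nme1*, *Dhodh*, *Umps*, and *Uck2* lie left of 0 and *Ctps2* and *Dck* to the right, and no point reaches 1 in either direction, although the interval of *Adssl1* extends beyond it.

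The counts of calls depended on single libraries. The number called lower was 4, 3, 6, and 3 without HCME-sEV libraries 1 to 4 in turn, and 1, 2, and 1 without LME-sEV libraries 1 to 3. The number called higher was 1, 1, 2, and 1 without HCME-sEV libraries 1 to 4, and 2, 0, and 0 without LME-sEV libraries 1 to 3. *Atic* was the only member called in all 7 of these fits, at an edgeR FDR of at most 0.0331. Every called member kept its direction in them.

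Summed over genes, all 3 steps were lower with LME-sEVs in every library. The purine genes summed to 2993, 2824, 2663, and 2714 CPM in HCME-sEV libraries 1 to 4 and to 2531, 2613, and 2533 CPM in LME-sEV libraries 1 to 3. The pyrimidine genes summed to 707, 658, 625, and 647 CPM and to 557, 580, and 580 CPM. The deoxynucleotide genes summed to 1470, 1615, 1560, and 1530 CPM and to 1398, 1384, and 1362 CPM. The groups did not overlap in any of the 3 sums, which are dominated by their most abundant genes and carry no test. Together the members took between 0.482% and 0.499% of the counts of an HCME-sEV library and between 0.452% and 0.463% of those of an LME-sEV library.

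**Figure D2:**
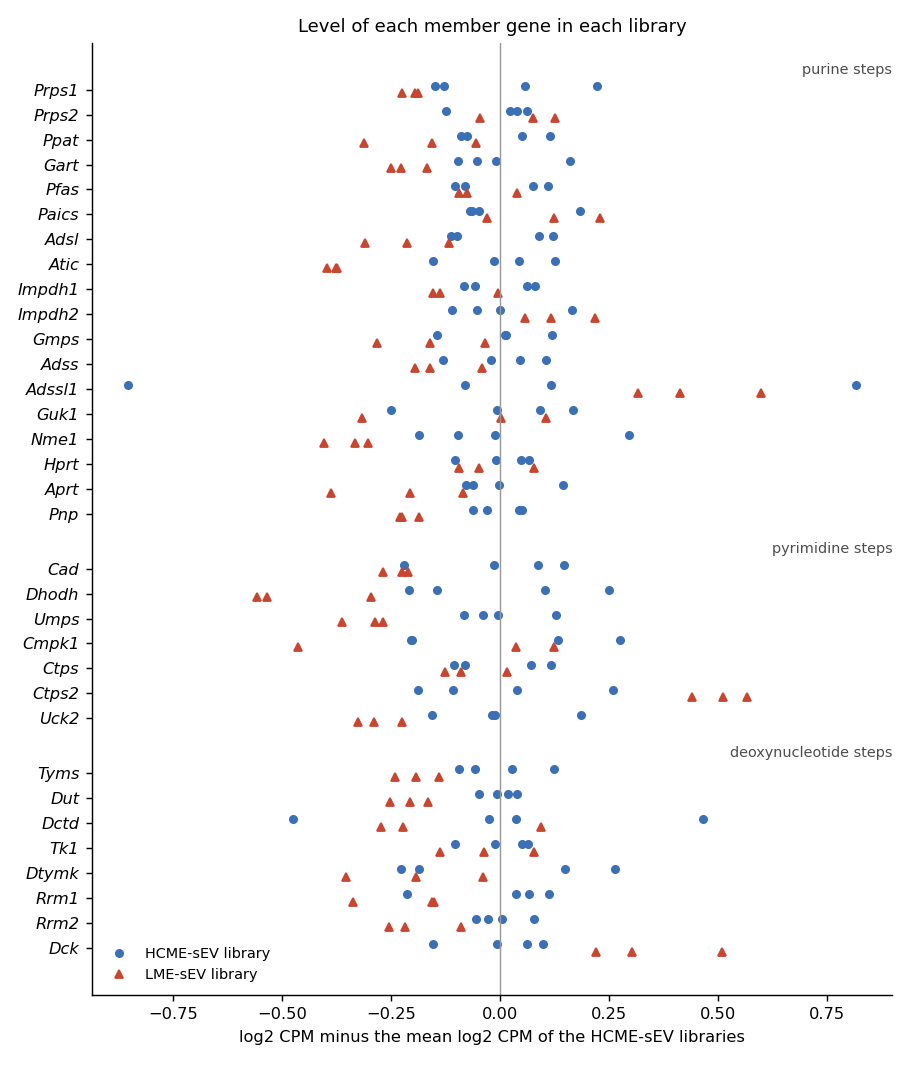
Level of each tested member in each library, as log2 CPM minus the mean log2 CPM of the 4 HCME-sEV libraries on the horizontal axis, with 1 row per gene grouped by step. Blue circles are HCME-sEV and red triangles LME-sEV libraries, and all red triangles lie left of the blue circles in 13 rows and right of them in those of *Ctps2* and *Dck*.

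Among purine genes, *Atic* and *Nme1* fell, and no gene was called higher. *Atic* encodes the bifunctional enzyme that closes the ring and yields IMP. Its level was 249, 235, 205, and 226 CPM in HCME-sEV libraries 1 to 4 and 173, 176, and 176 CPM in LME-sEV libraries 1 to 3. The LME-sEV libraries lay close together and all below the lowest HCME-sEV library. The mean was 229 ± 18.5 CPM (n = 4, SD) and 175 ± 1.56 CPM (n = 3, SD), and *Atic* fell by 0.39 on the log2 scale (standard error 0.081, 95% interval -0.56 to -0.22, edgeR FDR = 0.0049). Its counts ranged from 643 to 1033. *Atic* lies at chr1:71557150-71579631 of GRCm38.

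*Nme1* encodes a nucleoside diphosphate kinase, which converts diphosphates to triphosphates, and was the most abundant of the purine genes. It had 471, 381, 337, and 359 CPM in HCME-sEV libraries 1 to 4. In LME-sEV libraries 1 to 3 it had 311, 305, and 290 CPM. The groups did not overlap, and HCME-sEV library 1 stood highest. The mean was 387 ± 58.8 CPM (n = 4, SD) with HCME-sEVs and 302 ± 10.7 CPM (n = 3, SD) with LME-sEVs. *Nme1* fell by 0.36 on the log2 scale (standard error 0.095, 95% interval -0.56 to -0.16, edgeR FDR = 0.0214). Without LME-sEV library 1, 2, or 3 in turn, the edgeR FDR was 0.0525, 0.0873, and 0.114.

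The paralog *Nme2* had 1 count in HCME-sEV libraries 1 and 4 and LME-sEV library 3 and 0 counts in the other 4, and no fold was computed. In the GENCODE vM21 annotation, 98.3% of the last 300 bases of *Nme2* transcripts is shared on the same strand with the read-through gene *Gm20390*, as is 39.4% for *Nme1*. *Gm20390* itself had 0 counts in every library. Reads that fit more than 1 of these genes may not have been counted, so the levels of *Nme1* and *Nme2* are uncertain.

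The other genes on the way to IMP were not called. *Prps1* and *Prps2* encode the synthetases that activate ribose. *Prps1* had 205 ± 25.4 CPM with HCME-sEVs (n = 4, SD) and 177 ± 2.32 CPM with LME-sEVs (n = 3, SD), a log2 fold change of -0.21 (95% interval -0.40 to -0.03, edgeR FDR = 0.154), and its groups did not overlap. For *Prps2* the log2 fold change was 0.06 (-0.13 to 0.24, edgeR FDR = 0.772). *Ppat* encodes the amidotransferase of the first committed step, with a log2 fold change of -0.18 (-0.36 to 0.01, edgeR FDR = 0.238). *Gart* encodes a trifunctional enzyme of the following steps, and its 180 ± 14.5 CPM with HCME-sEVs (n = 4, SD) compared with 155 ± 4.65 CPM with LME-sEVs (n = 3, SD) without overlap of the groups. Its log2 fold change was -0.22 (-0.39 to -0.05, edgeR FDR = 0.105). *Pfas*, the amidating synthase of the middle of the pathway, had between 81.1 and 94.1 CPM with HCME-sEVs and between 81.6 and 89.6 CPM with LME-sEVs. *Adsl* encodes the lyase that acts both before IMP and on the way to AMP. Its LME-sEV libraries, at 61.9 to 70.8 CPM, lay just below the HCME-sEV libraries at 71.0 to 83.6 CPM (log2 fold change -0.22, -0.42 to -0.02, edgeR FDR = 0.172).

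*Paics*, which encodes the bifunctional carboxylase and synthetase between *Pfas* and *Adsl*, had a positive fold change that was not called. Its level was 283, 336, 283, and 286 CPM in HCME-sEV libraries 1 to 4 and 290, 323, and 347 CPM in LME-sEV libraries 1 to 3. HCME-sEV library 2 stood apart from the other 3 of its group, and the groups overlapped (log2 fold change 0.11, -0.07 to 0.29, edgeR FDR = 0.483). *Paics* and *Ppat* are neighbors on chromosome 5 with start sites 276 bases apart in the RefSeq promoter table, on opposite strands, so that their 5′ ends overlap while their 3′ ends, which the assay reads, do not. The ratio of *Paics* to *Ppat* CPM was 1.97, 2.24, 2.18, and 2.18 in HCME-sEV libraries 1 to 4 and 2.18, 2.90, and 2.80 in LME-sEV libraries 1 to 3. LME-sEV libraries 2 and 3 had the highest ratios and LME-sEV library 1 lay among the HCME-sEV libraries, and the ratio was not tested.

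Past IMP, no gene of the AMP or GMP branch was called. *Impdh2*, the main isoform of the rate-limiting enzyme toward GMP, had 224 ± 18.9 CPM with HCME-sEVs (n = 4, SD) and 244 ± 13.8 CPM with LME-sEVs (n = 3, SD), a log2 fold change of 0.13 (-0.04 to 0.30, edgeR FDR = 0.376). A processed copy of it shares 262 identical bases at the 3′ end and had at most 9 counts, so the level of *Impdh2* is uncertain. *Impdh1*, the minor isoform, had between 37.6 and 42.2 CPM and between 35.8 and 39.7 CPM in the respective groups. *Gmps*, the GMP synthase, had a log2 fold change of -0.16 (-0.36 to 0.03, edgeR FDR = 0.323). *Adss*, the adenylosuccinate synthase found in most tissues, had -0.13 (-0.31 to 0.05, edgeR FDR = 0.386), whereas the muscle form *Adssl1* had only 4 to 15 counts per library. *Guk1*, the guanylate kinase, had -0.07 (-0.30 to 0.15, edgeR FDR = 0.756).

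Of the purine salvage genes, *Hprt*, which recovers hypoxanthine and guanine, was nearly equal in the groups, at 302 ± 15.8 CPM with HCME-sEVs (n = 4, SD) and 298 ± 18.6 CPM with LME-sEVs (n = 3, SD). Its log2 fold change was -0.02, with a 95% interval of -0.18 to 0.14. *Aprt*, which recovers adenine, had 163 ± 11.7 CPM with HCME-sEVs (n = 4, SD) and 140 ± 14.5 CPM with LME-sEVs (n = 3, SD), and its highest LME-sEV library at 153 CPM lay just below the lowest HCME-sEV library at 154 CPM (log2 fold change -0.23, edgeR FDR = 0.123). *Pnp* encodes the phosphorylase that frees bases from purine nucleosides. It had between 65.2 and 70.4 CPM with HCME-sEVs and between 58.0 and 59.7 CPM with LME-sEVs, again without overlap (log2 fold change -0.22, -0.40 to -0.03, edgeR FDR = 0.146). Its level is uncertain, since its near copy *Pnp2* shares 99.0% of 295 bases at the 3′ end.

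Among pyrimidine genes, both enzymes that lead from dihydroorotate to UMP, *Dhodh* and *Umps*, fell in RNA, as did *Uck2* of salvage. *Dhodh* encodes the mitochondrial dehydrogenase that forms orotate. Its level was 47.5, 36.0, 34.4, and 42.8 CPM in HCME-sEV libraries 1 to 4 and 26.9, 32.4, and 27.3 CPM in LME-sEV libraries 1 to 3. The groups were separated by only 2 libraries, HCME-sEV 3 and LME-sEV 2, that lay close to each other. The mean was 40.2 ± 6.08 CPM (n = 4, SD) and 28.9 ± 3.03 CPM (n = 3, SD), and *Dhodh* fell by 0.48 on the log2 scale (standard error 0.130, 95% interval -0.75 to -0.21, edgeR FDR = 0.0243). The edgeR FDR was 0.0632 and 0.0681 without HCME-sEV library 1 or 4, and 0.0952 and 0.120 without LME-sEV library 1 or 3. *Dhodh* lies at chr8:109591343-109608673.

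*Umps* encodes the bifunctional enzyme that joins orotate to ribose and gives UMP. It had 122, 111, 108, and 105 CPM in HCME-sEV libraries 1 to 4. In LME-sEV libraries 1 to 3 it had 91.2, 92.4, and 86.5 CPM. Every LME-sEV library lay below every HCME-sEV library, and *Umps* fell by 0.31 on the log2 scale (standard error 0.085, 95% interval -0.49 to -0.13, edgeR FDR = 0.0262). The call was lost without HCME-sEV library 1 or 2 and without LME-sEV library 1, 2, or 3, with an edgeR FDR between 0.0613 and 0.133. With scaling to library size alone the edgeR FDR was 0.0523.

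*Uck2* encodes the kinase that salvages uridine and cytidine and was the most abundant of the pyrimidine genes. It had 237, 207, 187, and 206 CPM in HCME-sEV libraries 1 to 4 and 178, 170, and 166 CPM in LME-sEV libraries 1 to 3. The groups did not overlap, and *Uck2* fell by 0.29 on the log2 scale (standard error 0.085, 95% interval -0.46 to -0.11, edgeR FDR = 0.0393). This was the weakest of the 7 calls. It held without HCME-sEV library 3 and was lost without HCME-sEV library 1, 2, or 4 and without LME-sEV library 1, 2, or 3, with an edgeR FDR between 0.0632 and 0.167.

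*Cad* encodes the trifunctional enzyme that opens the pathway upstream of *Dhodh*. It had 118, 110, 95.5, and 123 CPM in HCME-sEV libraries 1 to 4 and 92.3, 95.1, and 96.0 CPM in LME-sEV libraries 1 to 3. HCME-sEV library 3 fell among the LME-sEV libraries. The log2 fold change was -0.24 (-0.44 to -0.05, edgeR FDR = 0.109), smaller in size than in any of the 7 called members. *Cmpk1*, the kinase of UMP and CMP, varied widely within both groups, from 61.9 to 86.4 CPM and from 51.7 to 77.7 CPM (log2 fold change -0.08, -0.36 to 0.20).

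The last step, from UTP to CTP, is served by paralogous synthases, of which *Ctps2* was called and *Ctps* was not. *Ctps*, which encodes the more abundant of them, had 91.9 ± 7.05 CPM with HCME-sEVs (n = 4, SD) and 87.6 ± 4.51 CPM with LME-sEVs (n = 3, SD), a log2 fold change of -0.07 (-0.25 to 0.12, edgeR FDR = 0.714). *Ctps2* had 21.2, 20.02, 27.5, and 23.5 CPM in HCME-sEV libraries 1 to 4 and 31.2, 32.8, and 34.1 CPM in LME-sEV libraries 1 to 3. All LME-sEV libraries lay above the highest HCME-sEV library. The mean of *Ctps2* was 23.1 ± 3.29 CPM (n = 4, SD) and 32.7 ± 1.46 CPM (n = 3, SD), and it rose by 0.51 on the log2 scale (standard error 0.127, 95% interval 0.24 to 0.78, edgeR FDR = 0.0153). It rests on 79 to 176 counts per library. The edgeR FDR was 0.0590 without HCME-sEV library 2 and 0.0701 and 0.0852 without LME-sEV library 2 or 3.

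**Figure D3:**
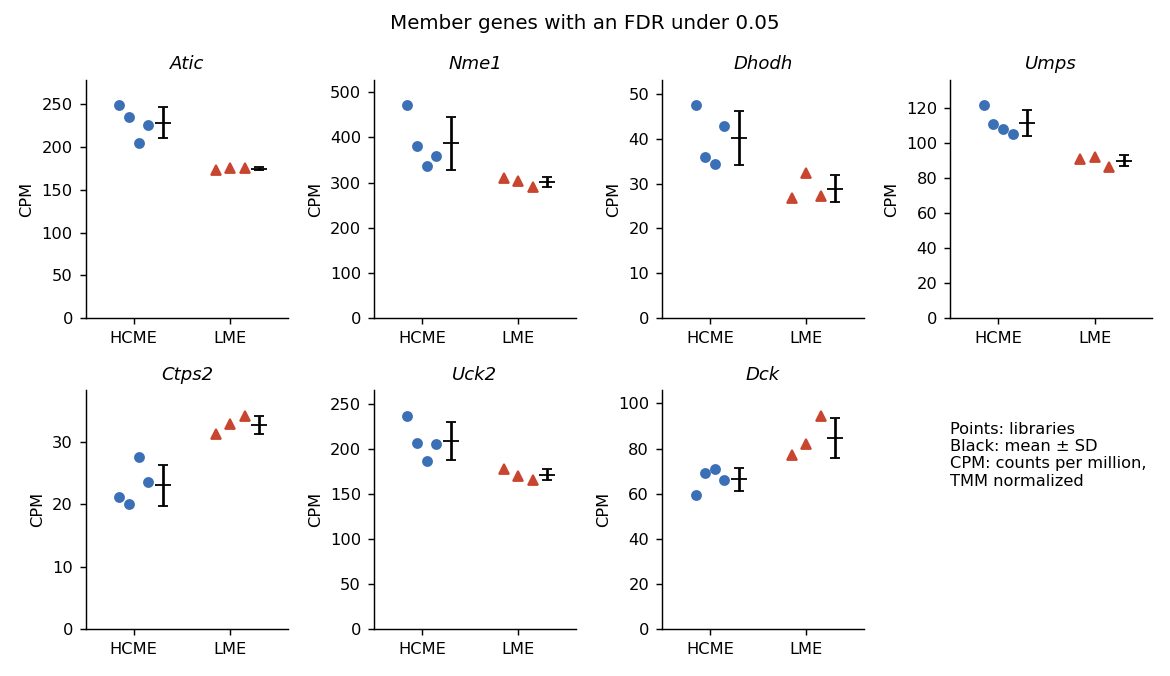
CPM of the 7 called members in each library, with a panel per gene whose axis starts at 0. Blue circles are HCME-sEV (n = 4) and red triangles LME-sEV libraries (n = 3), and black bars give the mean ± SD. The groups do not overlap in any panel, and only *Ctps2* and *Dck* are higher with LME-sEVs.

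Among deoxynucleotide genes, no gene was called lower and *Dck* was called higher. At an unadjusted p under 0.05 in edgeR, 4 of the 8 were lower, beside the 12.3% of all tested genes, and after adjustment DESeq2 called 1 lower and limma-voom 0. *Dck* encodes deoxycytidine kinase, the first enzyme in the salvage of deoxycytidine and purine deoxynucleosides. It had 59.5, 69.2, 71.0, and 65.9 CPM in HCME-sEV libraries 1 to 4 and 77.2, 81.8, and 94.4 CPM in LME-sEV libraries 1 to 3. The groups did not overlap, and LME-sEV library 3 stood highest. *Dck* rose by 0.35 on the log2 scale (standard error 0.097, 95% interval 0.15 to 0.56, edgeR FDR = 0.0261). The edgeR FDR was 0.0587 and 0.0567 without HCME-sEV library 1 or 4, and 0.0766 and 0.197 without LME-sEV library 2 or 3.

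*Dut* encodes the pyrophosphatase that keeps dUTP low and supplies dUMP, and had the highest level of all members. It had 510, 541, 533, and 524 CPM in HCME-sEV libraries 1 to 4. In LME-sEV libraries 1 to 3 it had 457, 469, and 442 CPM. The spread within either group was small and the groups lay apart, at 527 ± 13.5 CPM (n = 4, SD) and 456 ± 13.7 CPM (n = 3, SD). Its log2 fold change of -0.21 (standard error 0.070, 95% interval -0.35 to -0.06) had an edgeR FDR of 0.0684, and it was the member called by DESeq2, at an adjusted p of 0.0372.

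The subunits of ribonucleotide reductase, *Rrm1* for the large and *Rrm2* for the cell cycle-dependent small subunit, had similar values. *Rrm1* had 270, 338, 327, and 321 CPM in HCME-sEV libraries 1 to 4 and 281, 247, and 281 CPM in LME-sEV libraries 1 to 3 (log2 fold change -0.22, -0.40 to -0.04, edgeR FDR = 0.125). HCME-sEV library 1 lay within the LME-sEV range, and without it *Rrm1* and *Dut* were both called lower. *Rrm2* had 269 ± 10.9 CPM with HCME-sEVs (n = 4, SD) and 236 ± 14.5 CPM with LME-sEVs (n = 3, SD), without overlap (log2 fold change -0.19, -0.35 to -0.03, edgeR FDR = 0.134).

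For thymidylate, *Tyms*, the synthase that methylates dUMP, had between 128 and 149 CPM with HCME-sEVs and between 116 and 124 CPM with LME-sEVs (log2 fold change -0.20, -0.37 to -0.02, edgeR FDR = 0.155). *Tk1*, the cytosolic thymidine kinase of salvage, had between 123 and 138 CPM and between 120 and 139 CPM, a log2 fold change of -0.03 (-0.21 to 0.14). *Dtymk*, the thymidylate kinase used by both routes, had -0.20 (-0.44 to 0.04, edgeR FDR = 0.332). *Dctd*, the deaminase that makes dUMP from dCMP, was the least abundant of these genes, with 54 to 97 counts per library and a log2 fold change of -0.16 (-0.55 to 0.23).

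Paired genes were compared by the ratio of their CPM in each library, over 4 pairs. The *Prps*, *Impdh*, and *Ctps* pairs are isoenzymes of the same step, whereas *Rrm2* and *Rrm1* encode subunits of ribonucleotide reductase. A two-sided exact permutation test was used, for which 35 assignments of the group labels exist and p cannot fall below 0.0286. *Ctps2* made up between 17.2% and 24.1% of *Ctps* plus *Ctps2* CPM with HCME-sEVs (20.1% ± 3.31, n = 4, SD) and between 26.6% and 28.1% with LME-sEVs (27.2% ± 0.776, n = 3, SD). The log2 ratio of *Ctps* to *Ctps2* differed by -0.58 (exact p = 0.0571, adjusted p = 0.114). The shares do not overlap, yet the smallest possible p was not reached. *Impdh2* made up between 84.3% and 85.6% of the *Impdh* pair with HCME-sEVs and between 85.9% and 87.8% with LME-sEVs, a difference of -0.23 in the log2 ratio of *Impdh1* to *Impdh2* (exact p = 0.0286, adjusted p = 0.114). This share rests on the uncertain level of *Impdh2*. *Prps2* made up between 24.0% and 31.8% of the *Prps* pair and between 30.9% and 33.9%, with overlap (exact p = 0.2, adjusted p = 0.267). The log2 ratio of *Rrm2* to *Rrm1* differed by 0.03 (exact p = 0.771, adjusted p = 0.771). With 4 pairs, 1 pair at the smallest possible p cannot fall below an adjusted p of 0.114, so the adjusted values say little about whether the ratios differ.

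**Figure D4:**
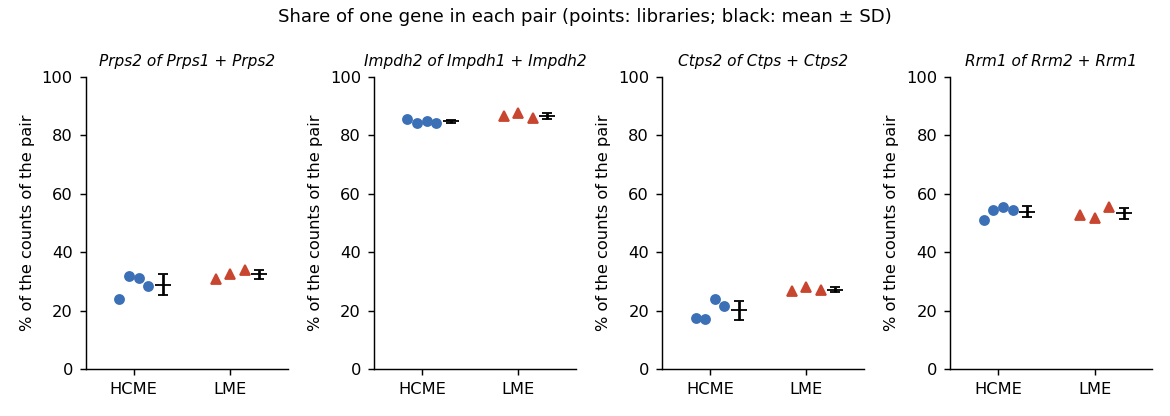
Share of *Prps2*, *Impdh2*, *Ctps2*, and *Rrm1* in the summed counts of its pair, in percent, for each library. Blue circles are HCME-sEV (n = 4) and red triangles LME-sEV libraries (n = 3), black bars give the mean ± SD, and the share of *Ctps2* lies between 17.2% and 24.1% with HCME-sEVs and between 26.6% and 28.1% with LME-sEVs.

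Sequences upstream of the genes were read from the RefSeq promoter table of GRCm38.p6, from 250 bases before to 50 after the start site, which holds 32 of the 34 members, without *Pfas* and *Dhodh*. The E-box CACGTG, bound by basic helix-loop-helix leucine zipper proteins such as Myc and Max, was searched on both strands, as were the CCAAT box (CCAAT) and the GC box (GGGCGG), which do not overlap it. The E-box was found in 6 of 32 member genes (18.8%), compared with 8.09% of all 27025 genes with a promoter in the table. These were *Paics*, *Atic*, *Impdh2*, *Nme1*, *Tyms*, and *Dtymk*, 2 of which were called lower and 2 of which had positive fold changes that were not called. The GC box was found in 27 members (84.4%, against 38.2% of all genes) and the CCAAT box in 13 (40.6%, against 41.1%). A match is a run of letters and not a binding site. The comparison covers all genes of the promoter table, whether or not these cells express them. A share among expressed genes was not computed, so these differences cannot be read as particular to nucleotide synthesis.

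Of the 7 called members, the windows of 4 chosen after values were seen are shown, 250 bases up to the start site, 5′ to 3′ along the gene. E-boxes, CCAAT boxes, and GC boxes are in capitals. Overlap of these windows with exons was not computed, and that of *Ctps2* lies inside the annotated gene. They lie at chr1:71556906-71557155 on the plus strand (*Atic*), chr16:33967039-33967288 on the minus strand (*Umps*), chrX:162901921-162902170 on the plus strand (*Ctps2*, the most downstream of 3 start sites), and chr5:88764763-88765012 on the plus strand (*Dck*). *Atic* and *Umps* fell and *Ctps2* and *Dck* rose, but 4 chosen windows cannot show whether motifs differ between genes that fell and rose. The window of *Atic* holds an E-box that begins 7 bases before the start site, 3 GC boxes, and 1 CCAAT box. That of *Dck* holds 5 GC boxes.
Atic: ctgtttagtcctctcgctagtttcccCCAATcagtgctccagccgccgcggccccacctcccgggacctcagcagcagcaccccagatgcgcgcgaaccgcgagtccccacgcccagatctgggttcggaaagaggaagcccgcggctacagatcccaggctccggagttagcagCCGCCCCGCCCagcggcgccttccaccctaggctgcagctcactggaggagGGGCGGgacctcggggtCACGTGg
Umps: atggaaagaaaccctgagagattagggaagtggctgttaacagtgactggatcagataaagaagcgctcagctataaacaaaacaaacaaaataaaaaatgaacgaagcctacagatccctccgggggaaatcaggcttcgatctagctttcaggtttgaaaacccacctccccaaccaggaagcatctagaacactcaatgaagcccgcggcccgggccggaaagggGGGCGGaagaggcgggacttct
Ctps2: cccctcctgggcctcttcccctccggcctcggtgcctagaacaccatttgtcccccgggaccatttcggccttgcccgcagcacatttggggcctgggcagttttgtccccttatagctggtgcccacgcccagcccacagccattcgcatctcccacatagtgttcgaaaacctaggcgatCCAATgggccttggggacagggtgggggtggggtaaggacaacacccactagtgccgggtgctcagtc
Dck: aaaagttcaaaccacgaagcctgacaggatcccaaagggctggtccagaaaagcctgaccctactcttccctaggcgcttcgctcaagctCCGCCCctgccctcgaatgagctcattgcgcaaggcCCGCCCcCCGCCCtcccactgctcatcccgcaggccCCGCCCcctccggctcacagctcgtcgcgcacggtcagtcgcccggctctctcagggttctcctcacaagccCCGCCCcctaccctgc
The window of *Umps* holds 1 GC box and that of *Ctps2* a single CCAAT box, and neither *Umps*, *Ctps2*, nor *Dck* holds the E-box in these letters. The windows at the other start sites of *Ctps2*, not printed, hold none of these motifs.

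Genes around nucleotide synthesis were examined by lists. Of all tested genes, 5.21% were called lower, 3.75% were called higher, and 48.5% had a negative log2 fold change. The counts of these short lists carry no test. Of 21 tested genes among 24 further genes of nucleotide synthesis and salvage, 5 were called lower (23.8%) and 1 higher (4.76%), with a median log2 fold change of -0.03. Of those called lower, 1 also passed the log2 fold change cutoff of 1, and the lowest value of the list was -1.24. DESeq2 called 4 lower, 0 higher, and 0 beyond the cutoff. *Ak6*, a nuclear adenylate kinase, *Nme6*, a mitochondrial relative of *Nme1*, and *Cmpk2*, a mitochondrial kinase induced by interferon, fell by 0.38, 0.72, and 0.87 on the log2 scale (edgeR FDR = 0.0177, 0.0128, and 0.0156). The number called lower was 5, 4, 6, and 4 without HCME-sEV libraries 1 to 4 and 3, 2, and 3 without LME-sEV libraries 1 to 3.

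Genes that supply precursors were examined next. In the pentose phosphate pathway, which makes ribose phosphate, 2 of 8 genes were called lower (25.0%, beside 5.21% of all tested genes). They were *Tkt*, the transketolase (log2 fold change -0.37, edgeR FDR = 0.0110), and *Pgd*, the phosphogluconate dehydrogenase (-0.30, edgeR FDR = 0.0365), while the median of the list was 0.02. Of 13 tested genes of one-carbon and folate metabolism, which supplies carbons of the purine ring and the methyl group of thymidylate, 2 were called lower (15.4%). These were the folate carrier *Slc19a1* (-0.42, edgeR FDR = 0.0106) and the cytosolic serine hydroxymethyltransferase *Shmt1* (-0.36, edgeR FDR = 0.0165), and the median was -0.15. In the breakdown of nucleotides, 2 of 17 tested genes were called lower (11.8%). They were *Mtap*, which recovers adenine from methylthioadenosine (-0.39, edgeR FDR = 0.00746), and *Dctpp1*, a pyrophosphatase of dCTP (-0.36, edgeR FDR = 0.0232). The log2 fold change was negative in 9 of the 17 (52.9%, beside 48.5% of all tested genes), with a median of -0.04. Leaving out HCME-sEV libraries 1 to 4 and then LME-sEV libraries 1 to 3 gave 1, 1, 2, 1, 1, 1, and 1 calls in the pentose phosphate pathway, 3, 2, 2, 2, 1, 1, and 1 in one-carbon metabolism, and 1, 1, 2, 2, 1, 0, and 0 in breakdown. For nucleoside transporters, 0 of 4 tested genes were called by edgeR, DESeq2, or limma-voom. At an unadjusted p under 0.05 in edgeR, 1 of the 4 was lower, beside 12.3% of all tested genes.

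Genes of DNA replication in S phase had mostly lower values as well. The log2 fold change was negative in 33 of 37 (89.2%, beside 48.5% of all tested genes), with a median of -0.12. The 6 called lower are 16.2% of the list, beside 5.21% of all tested genes. The 37 genes summed to between 5335 and 5604 CPM with HCME-sEVs and between 4856 and 5114 CPM with LME-sEVs. *Pcna*, the sliding clamp of DNA polymerases, fell from 368 ± 22.8 CPM (n = 4, SD) to 304 ± 4.72 CPM (n = 3, SD), by 0.28 on the log2 scale (edgeR FDR = 0.0234). *Uhrf1*, which maintains DNA methylation at forks, *Mcm10*, and *Gins1*, both of the replication initiation machinery, fell by 0.33, 0.36, and 0.36 on the log2 scale (edgeR FDR = 0.0153, 0.0288, and 0.0398). DESeq2 called 3 of the list and scaling to library size alone 2. Leaving out HCME-sEV libraries 1 to 4 in turn gave 4, 3, 6, and 2 calls, and leaving out LME-sEV libraries 1 to 3 gave 3, 0, and 1. Whether the share of cells in S phase moves the nucleotide synthesis genes was not tested.

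**Figure D5:**
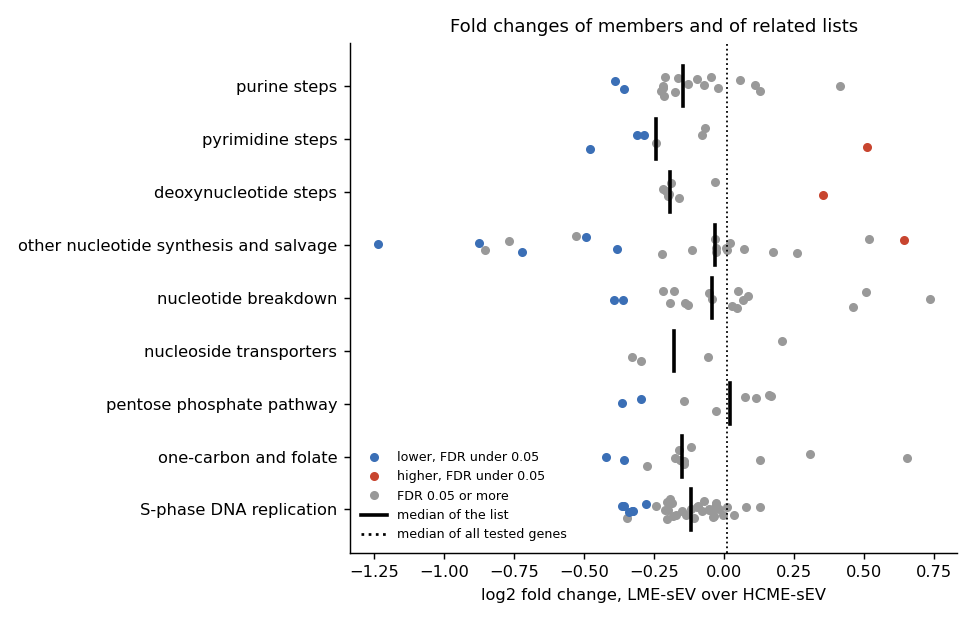
Log2 fold changes of the tested genes in each list, LME-sEVs against HCME-sEVs. Points are genes, blue (lower) or red (higher) when the edgeR FDR is under 0.05 and gray otherwise, the dotted line is the median of all tested genes, and vertical bars are list medians, which are -0.15, -0.24, and -0.19 for purine, pyrimidine, and deoxynucleotide genes and -0.12 for DNA replication genes.

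Of 15 tested regulators known to act on these pathways, 2 were called lower (13.3%, beside 5.21% of all tested genes) and 1 higher (6.67%, beside 3.75%). *Atf4*, a transcription factor of the amino acid response that also drives one-carbon genes, fell by 0.45 on the log2 scale (edgeR FDR = 0.0043). *Max*, the partner of Myc, fell by 0.36 (edgeR FDR = 0.0126), and *Mxd4*, a repressor that pairs with Max, rose from 52.2 ± 7.51 CPM (n = 4, SD) to 108 ± 22.3 CPM (n = 3, SD), by 1.06 on the log2 scale (edgeR FDR = 5.67e-05). The regulators called lower were 2, 2, 3, and 2 without HCME-sEV libraries 1 to 4 and 2, 1, and 1 without LME-sEV libraries 1 to 3. The RNA of *Myc*, named here after its values were seen, had 36.1, 107, 105, and 75.9 CPM in HCME-sEV libraries 1 to 4 and 60.5, 83.6, and 93.8 CPM in LME-sEV libraries 1 to 3. The LME-sEV libraries lay within the wide range of the HCME-sEV libraries (log2 fold change -0.01, edgeR FDR = 0.981). Among T-cell markers, *Cd3e* rose by 0.36 on the log2 scale (edgeR FDR = 0.0106). Of 4 tested B-cell markers, 1 was called higher (25.0%). This was *Ighm*, the heavy chain of IgM, which rose by 0.38 (edgeR FDR = 0.0043).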

How the data were processed

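RNA was measured in 7 libraries of mouse CD8+ T cells (HCME-sEV, n = 4, and LME-sEV, n = 3), grouped by the sample labels. A figure legend of the study gives the group sizes the other way round, and the labels were followed. The authors deposited raw counts per gene: reads from a QuantSeq 3′ kit with UMIs were trimmed with cutadapt 2.10, mapped to GRCm38 with STAR 2.5.3a, collapsed by UMI with UMI-tools 1.0.0, and counted with featureCounts of Subread 2.0.0. Collapsing removes PCR copies, so a count stands for a captured molecule. The annotation release and strand setting are not given in the sources used here, so overlapping genes on opposite strands may share reads.

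The test covered the 12623 of 55367 genes whose counts averaged 5 or more over the libraries. It was the quasi-likelihood F test of edgeR 4.0.16 in R 4.3.3, without covariates and after TMM scaling, and the Benjamini-Hochberg adjustment ran over these genes. The standard error is the fold change divided by the square root of F, and 95% intervals are not adjusted. CPM is after TMM. Alternatives covered 3 other filters, DESeq2 size factors, upper quartile, library size only, DESeq2 1.42.0, limma-voom (limma 3.58.1), the replicate number as a block, and leaving out each library. The scripts were tested on simulated data with known changes. The pass criterion concerned changes larger than that of any member, and recovery of smaller ones is not reported here. Coordinates are from GENCODE vM21, and near copies of the last 300 bases were searched with blast 2.17.0. Python 3.11.15 with pandas 2.3.3, numpy 2.4.6, scipy 1.17.1, and matplotlib 3.10.9 was used.

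All members are named. From each further list up to 4 genes with the smallest FDR among those called with a mean of at least 20 counts are named. Per-library values are given for called members and the most abundant of each step, and others where libraries overlap unevenly. The members and lists were chosen with earlier results of these data known, and the printed promoters after values were seen. Some values of the further lists are not reported here.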

Additional observations from a re-analysis of the deposited data

Results flagged for a closer look

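*Paics* in HCME-sEV library 2 lay above the other 3 libraries of its group, at 336 CPM against 283 to 286 CPM. The gap to the nearest library was 0.930 of the range of the group, beyond Dixon's 95% critical value for 4 libraries. Of 41 values examined in this way 1 was beyond it, where chance alone gives about 2.05.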

How the results depend on the processing

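Under the 9 settings that change the filter, scaling, test, or block, *Atic*, *Nme1*, *Dhodh*, *Ctps2*, and *Dck* were called in all 9, *Umps* in 8, and *Uck2* in 7. Scaling to library size only left 3 members called lower, 1 of them pyrimidine, with a median of -0.13 over the members, and moved the median of all genes from 0.01 to 0.06 and the higher share of all calls from 41.8% (473 higher, 658 lower) to 56.9% (614 higher, 465 lower). DESeq2 called 1 deoxynucleotide gene lower, *Dut*. Directions without a call reversed for *Hprt* (0.024) and *Tk1* (0.011) with library size only. When 1 library was left out, *Guk1* ranged from -0.17 to 0.047, *Hprt* from -0.073 to 0.021 with 0.00073 without HCME-sEV library 3, *Cmpk1* from -0.20 to 0.077, *Tk1* from -0.092 to 0.021, and *Dctd* reached 0.017 without HCME-sEV library 2. The cause was not tested.

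Leaving out 1 library at a time gave 1 to 6 members called lower and 0 to 2 higher. By step the ranges were 1 to 2 lower for purine, 0 to 4 lower and 0 to 1 higher for pyrimidine, and 0 to 2 lower and 0 to 1 higher for deoxynucleotide genes. Over all genes they were 223 to 761 lower and 168 to 544 higher, and the lowest came without LME-sEV library 2. The median of the pyrimidine genes ranged from -0.31 to -0.19, and the difference in the log2 ratio of *Rrm2* to *Rrm1* from -0.019 to 0.091, with -0.0038 without HCME-sEV library 3. Fewer libraries and fewer degrees of freedom are part of these fits.

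Libraries with the same replicate number did not deviate together, with correlations of 0.0721, 0.155, and 0.0268 for numbers 1 to 3, so the numbers were not treated as pairs. With the replicate number as a block, 6 members were called lower, *Gart* in addition (edgeR FDR = 0.0435), 2 were called higher, and 860 and 594 of all genes were called. By step the block gave 3 purine and 3 pyrimidine genes lower, and medians of -0.19 over all members, -0.16, -0.19, and -0.21 for purine, pyrimidine, and deoxynucleotide genes. With 3 libraries in a group, the SD is itself imprecise. Counts were lowest for *Nme2*, under the floor of 3 in every library, and for *Adssl1*, with 4 to 15. The standard error was largest for *Adssl1* (0.416), followed by *Dctd* (0.187), which had 54 to 97 counts. How far depth limits these and the other members was not tested.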
